A study of Caenorhabditis elegans with 2 samples.

Results

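Closely spaced same-strand gene pairs were defined as neighbouring protein-coding genes on 1 strand whose downstream gene starts 50 to 500 bp after the end of the upstream gene. The Ensembl annotation of the C. elegans assembly WBcel235 held 3328 such pairs, out of 17073 gaps of any length and strand between neighbouring protein-coding genes. Pairs that follow each other were joined into runs, which gave 2515 runs with 5843 of the 19973 protein-coding genes (29.3%). The choice used gene positions and strand only, and no binding value. APTF-2 binding was mapped by ChIP-seq in whole young adults of 61.5 h, synchronised by bleaching and by starving the L1 larvae. All animals were of strain RW12304 and carried the CRISPR insertion st12304[aptf-2::TY1::EGFP::3xFLAG] at the endogenous gene on chromosome IV, and chromatin was pulled down through the GFP part of the tag. The 2 biological replicates form 1 group, and no group without the tag was analysed here. The authors' conservative list from both replicates, thresholded by the irreproducible discovery rate (IDR), held 892 peaks. Each peak has a summit, its point of highest signal, and a signal, the score of the authors' peak caller with no stated scale.

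In C. elegans many closely spaced genes on 1 strand form operons. The genes of an operon are transcribed together from a promoter before the first gene, and trans-splicing then separates the messages. Short distances are typical of operons, but genes can also lie close together and each have a promoter of its own. APTF-2 belongs to the AP-2 family, DNA-binding transcription factors that in mammals favour a GC-rich palindrome. APTF-2 itself is known for a role in the embryonic epidermis. Operon and trans-splicing annotation was not used here, so a run is a run by distance only. Of 8 textbook operon pairs checked, 3 met the distance rule (gpd-2/gpd-3, des-2/deg-3 and fib-1/rps-16), and the others overlap, lie 3 bp apart or have another gene between them.

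The sequences of 6 gaps are shown because they are short (up to 300 bp) and among those with the strongest summits, so the whole stretch between the genes can be read. They come from the RefSeq assembly WBcel235 and are written 5′ to 3′ on the strand of the genes, from the end of the upstream gene to the start of the downstream one. Capitals mark the 21 bases centred on the summit, cut short where the gap ends.
lido-8/lido-9 (chrII:3000654-3000767, plus strand): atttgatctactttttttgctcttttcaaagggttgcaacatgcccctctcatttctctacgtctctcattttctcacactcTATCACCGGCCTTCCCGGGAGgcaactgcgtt
sre-36/F13A7.14 (chrV:16401626-16401890, plus strand): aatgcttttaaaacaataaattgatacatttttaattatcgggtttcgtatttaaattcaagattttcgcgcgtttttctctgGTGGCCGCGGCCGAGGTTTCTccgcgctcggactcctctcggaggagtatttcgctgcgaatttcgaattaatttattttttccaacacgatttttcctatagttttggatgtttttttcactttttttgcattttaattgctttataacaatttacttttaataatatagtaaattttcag
pnc-1/Y38C1AA.12 (chrIV:192152-192255, plus strand): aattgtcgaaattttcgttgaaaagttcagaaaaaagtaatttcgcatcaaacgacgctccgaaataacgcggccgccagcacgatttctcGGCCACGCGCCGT
T14B4.1/exos-8 (chrII:6741481-6741690, plus strand): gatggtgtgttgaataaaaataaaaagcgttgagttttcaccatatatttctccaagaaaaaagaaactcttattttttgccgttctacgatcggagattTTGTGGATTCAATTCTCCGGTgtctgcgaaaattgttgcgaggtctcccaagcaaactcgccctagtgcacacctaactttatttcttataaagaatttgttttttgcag
Y39B6A.42/Y39B6A.43 (chrV:18967830-18967904, minus strand): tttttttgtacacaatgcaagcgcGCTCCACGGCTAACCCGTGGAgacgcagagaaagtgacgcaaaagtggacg
F26G1.15/F26G1.1 (chrII:4791341-4791617, plus strand): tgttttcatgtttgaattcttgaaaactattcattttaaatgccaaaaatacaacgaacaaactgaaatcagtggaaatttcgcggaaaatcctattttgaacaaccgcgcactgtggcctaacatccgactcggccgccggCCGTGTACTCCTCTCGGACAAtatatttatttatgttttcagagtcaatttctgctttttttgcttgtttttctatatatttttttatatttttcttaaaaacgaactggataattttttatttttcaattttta

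For the stretches before first genes, 151 bases centred on the summit are shown for 4 of the strongest that overlap no annotated exon. They too come from RefSeq WBcel235, on the strand of the first gene, with the same 21 bases in capitals.
K12H4.5 (chrIII:8043896-8044046, plus strand): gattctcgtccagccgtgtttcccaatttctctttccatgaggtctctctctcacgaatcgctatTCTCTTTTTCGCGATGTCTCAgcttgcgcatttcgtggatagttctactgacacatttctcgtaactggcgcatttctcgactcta
rpl-15 (chrIV:654856-655006, minus strand): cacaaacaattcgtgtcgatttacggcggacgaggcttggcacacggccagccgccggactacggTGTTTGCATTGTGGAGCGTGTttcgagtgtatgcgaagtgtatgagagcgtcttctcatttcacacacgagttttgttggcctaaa
Y62F5A.12 (chrII:11534948-11535098, minus strand): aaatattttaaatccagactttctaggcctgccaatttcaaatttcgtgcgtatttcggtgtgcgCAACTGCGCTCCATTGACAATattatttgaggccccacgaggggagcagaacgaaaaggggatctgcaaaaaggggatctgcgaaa
rps-24 (chrIV:385486-385636, plus strand): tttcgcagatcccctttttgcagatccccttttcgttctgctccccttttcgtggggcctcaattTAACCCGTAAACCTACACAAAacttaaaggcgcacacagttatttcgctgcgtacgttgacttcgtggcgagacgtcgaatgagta

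The T14B4.1/exos-8 gap and the sre-36/F13A7.14 gap both end in CAG after a stretch rich in T. The summit of the 104 bp pnc-1/Y38C1AA.12 gap lay 3 bp before the downstream gene, at the very edge of the gap. GC content was 52% in the 75 bp gap between Y39B6A.42 and Y39B6A.43 and 31.8% in that between F26G1.15 and F26G1.1, against 32.6% over all gaps. The stretches before Y62F5A.12 and rps-24 share 47 bases on opposite strands, and the window at the Y62F5A.12 summit had 2 copies in the genome.

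No difference in summit density passed between gaps and the 1000 bp before the first gene of a run, which does not show that they are equal. The gaps held 48 summits in 764.2 kb, or 62.8 per Mb (95% exact Poisson interval 46.3 to 83.3). The windows before first genes held 112 in 2440 kb, or 45.9 per Mb (37.8 to 55.2). The ratio was 1.37 (interval 0.955 to 1.94), which did not pass (exact conditional binomial test, two-sided p = 0.0775). Both kinds of region stood above the 8.90 per Mb of the whole genome. In the part of the windows free of protein-coding genes the density was 57.2 per Mb. The direction depends on the list and on the window: the ratio was 0.798 in replicate 1's own list, 1.03 in that of replicate 2, 0.588 for peaks listed in both, and 0.915 for windows of 500 bp. It passed above 1 for single-copy summits (1.48, exact p = 0.0316) and for peak overlap in place of summits (1.47, exact p = 0.0218). The units of these tests are peaks, not animals, and no p-value here measures how further replicates would vary. Over the 11 comparisons tested, the Benjamini-Hochberg adjusted p was 0.142.

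**Figure D1:**
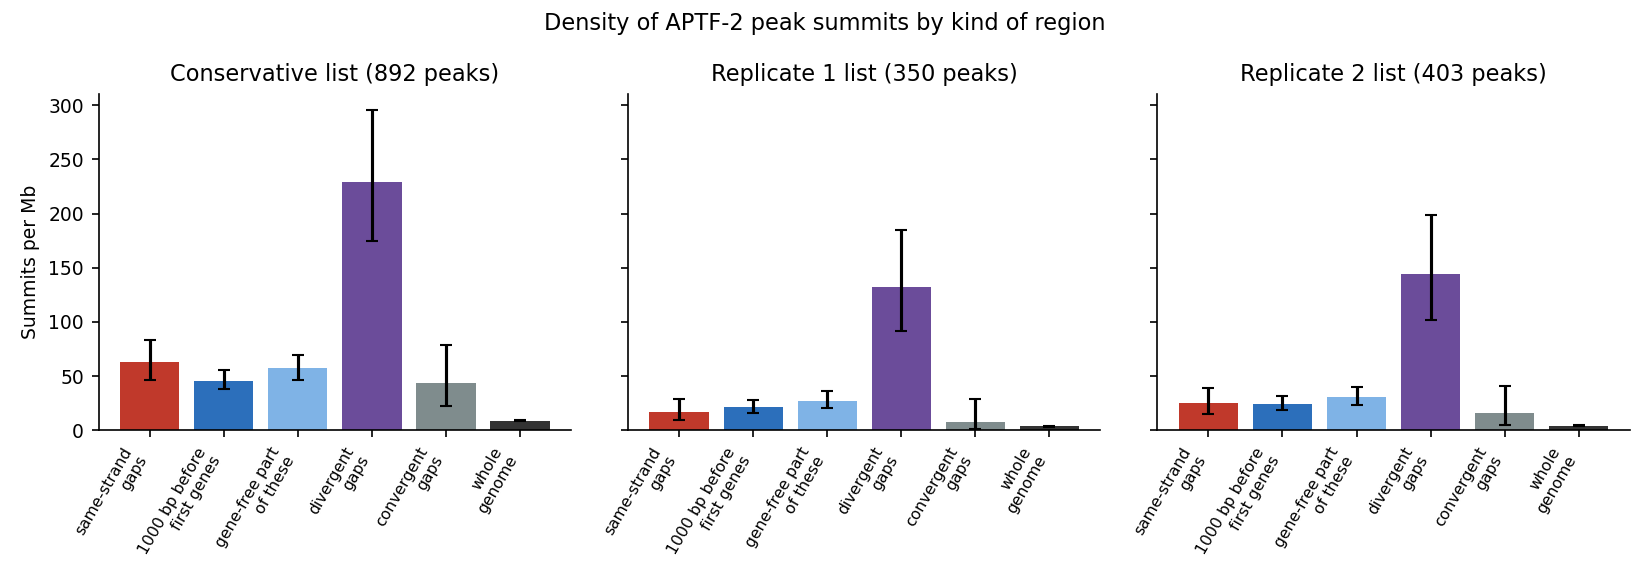
Summits per Mb (vertical axis) in gaps of 50 to 500 bp inside runs, in the 1000 bp before first genes and its gene-free part, in divergent and convergent gaps of 50 to 500 bp and in the whole genome, for the conservative list and each replicate's own list. Bars are densities and lines are 95% exact Poisson intervals of the counts. In the conservative list same-strand gaps stand at 62.8 per Mb, first-gene windows at 45.9 and divergent gaps at 229.6.

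Counted per region, 46 of 3328 gaps (1.38%, Wilson interval 1.04 to 1.84%) held a summit, against 2.22% of all 5179 gaps of that length in any orientation. Of the 2515 first-gene windows 125 held one (4.97%, 4.19 to 5.89%), against 2.81% of the 1000 bp before all protein-coding genes. A window is several times longer than a typical gap, whose median length was 200 bp (quartiles 106 and 344), so these 2 shares are not on 1 scale. Genes outside runs had a summit in the same window in 2.60% (2.35 to 2.87%), and the downstream genes of runs in 2.07% (1.64 to 2.62%). The share of first genes was above that of genes outside runs, with intervals that do not overlap. However, 15 summits counted for 2 first-gene windows each. First genes with an opposite-strand start in the window had 10.4%. Those with no gene there had 2.72%, and those with same-strand or overlapping neighbours alone 2.30%. Genes outside runs were not split in this way, so whether being first in a run matters was not tested. No run had a summit both in a gap and before its first gene, and 170 of 2515 runs had 1 of these, 45 of them in a gap. With 45 and 125 of 2515 runs, few or none would hold both if the 2 were independent. The lack of such runs was not tested. Runs of 3 or more genes had a summit before the first gene in 6.51% of cases, and runs of 2 genes in 4.51%.

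Lengths were matched by setting the first gap of each run beside a stretch of equal length right before its first gene. Of 2515 runs, 38 had a summit in the first gap alone, 37 in the stretch before the first gene alone, and 0 in both (exact McNemar test, p = 1). The shares were 1.51% for first gaps and 1.47% for the stretches, a difference of 0.0398 percentage points. The sign turned in 7 of 12 alternatives, among them both replicates' own lists, so no direction can be read from it. It passed below zero for peaks listed in both replicates, at -0.398 points (exact p = 0.0414), and for peak overlap, at -1.03 points (exact p = 0.0178). A summit between 2 first genes on opposite strands can lie in the stretches of both runs and then counts for each. The runs are thus not all independent, and these calls were not repeated with each summit counted once.

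What lies before the first gene divided the runs. Of 2515 windows, 758 held the start of a gene on the opposite strand, so that both genes can share the space between them. In these, 79 windows (10.4%, 8.44 to 12.8%) had a summit, and the density was 96.6 per Mb. Where no other protein-coding gene lay in the 1000 bp, 34 of 1248 windows (2.72%, 1.96 to 3.78%) had one, at 26.0 per Mb. Same-strand or overlapping neighbours alone gave 11 of 479 (2.30%). Of the 112 summits before first genes, 69 had an opposite-strand start within 1000 bp and 15 served 2 runs at once. The share of gaps with a summit was 1.62% (1.01 to 2.57%) in runs with an opposite-strand start before the first gene, at 81.1 summits per Mb. It was 1.45% (0.968 to 2.17%) with no gene there, at 60.4 per Mb, and 0.772% (5 of 648 gaps, 0.330 to 1.79%) with same-strand or overlapping neighbours alone, at 38.9 per Mb. The intervals of these 3 shares overlap, and their differences were not tested.

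In the 1248 runs with no protein-coding gene before the first gene, gaps were denser in summits than the first-gene windows. Their gaps held 23 summits at 60.4 per Mb, and their windows held 32 at 26.0 per Mb. These runs were picked by what lies in the window, and over all runs gaps stood at 62.8 and windows at 45.9 per Mb. With an opposite-strand start there the order was the other way, with gaps at 81.1 and windows at 96.6 per Mb. The gene-free part of those windows stood at 191.2 per Mb, and that contrast was not tested. In the runs with no gene before the first, the ratio of gaps to windows was 2.32 (1.30 to 4.10). It passed (exact conditional binomial p = 0.00362, adjusted p = 0.00996 over the 11 comparisons). It was 3.95 in the list of replicate 1 (exact p = 0.00243) and 2.43 in that of replicate 2 (exact p = 0.0242). With windows of 500 bp it was 2.51 (exact p = 0.0066). For peaks listed in both replicates, 6 against 7 summits gave 2.77, which did not pass (exact p = 0.0931). With lengths matched, the first gap alone held a summit in 18 of these runs and the stretch before the first gene alone in 3 (exact McNemar p = 0.00149, adjusted p = 0.00546). That call was lost in the list of replicate 1 (8 against 2, exact p = 0.109) and of replicate 2 (8 against 3, exact p = 0.227). It was also lost for peaks listed in both replicates (4 against 2, exact p = 0.688) and for peak overlap (20 against 11, exact p = 0.15). Taking these runs alone was 1 of the planned ways of cutting the data, and its checks in each replicate were added after the value was seen.

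Same-strand gaps held far fewer summits than divergent gaps of the same range of lengths. Same-strand gaps held 62.8 summits per Mb and divergent gaps, between the starts of 2 genes, 229.6 per Mb (174.8 to 296.1). The ratio was 0.274 (0.183 to 0.407, exact conditional binomial p = 6.20e-11, adjusted p = 6.82e-10). It was 0.129 in the list of replicate 1 and 0.173 in that of replicate 2. Convergent gaps, which lie between the ends of 2 genes, held 11 summits at 44.0 per Mb (21.9 to 78.7). The ratio to these was 1.43 (0.732 to 3.05), which did not pass (exact p = 0.364), and it passed only where gaps with a gene of another biotype were left out (2.88, exact p = 0.0195). By count, 46 of 3328 same-strand gaps (1.38%), 58 of 886 divergent gaps (6.55%) and 11 of 965 convergent gaps (1.14%) held a summit.

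**Figure D2:**
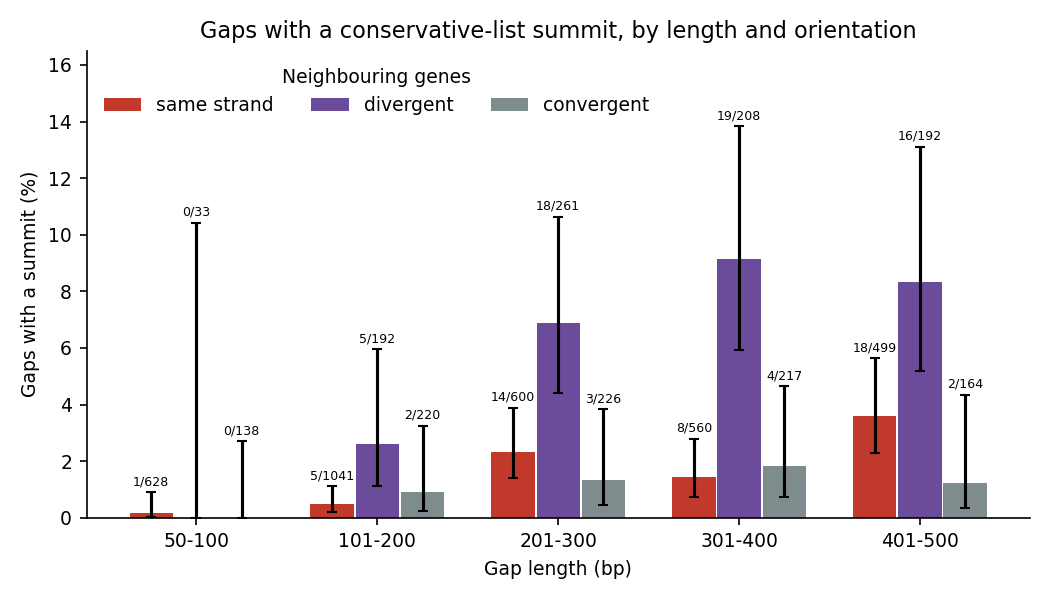
Percentage of gaps with a conservative-list summit (vertical axis) by gap length in bp (horizontal axis) for same-strand, divergent and convergent neighbours. Lines are 95% Wilson intervals and the numbers over them are gaps with a summit over all gaps of that kind. Same-strand gaps of 401 to 500 bp had a summit in 18 of 499 cases and those of 50 to 100 bp in 1 of 628.

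Short gaps, those nearest to the usual spacing within operons, seldom held a summit. Of 1659 gaps longer than 200 bp, 40 (2.41%, 1.78 to 3.27%) had one, against 6 of 1669 gaps of 50 to 200 bp (0.359%, 0.165 to 0.782%). A longer stretch offers more bases, so densities were compared too. Per base, the longer gaps held 73.5 summits per Mb and the shorter ones 31.1 per Mb. This ratio of 2.36 passed narrowly in the conservative list before adjustment (exact conditional binomial p = 0.0453), but not after it (adjusted p = 0.0997) and in none of the 10 alternatives, all in the same direction. The split at 200 bp was set after the values were seen, and density did not climb steadily with length. It was 18.9 per Mb in gaps of 50 to 100 bp, 35.8 up to 200 bp, 93.4 up to 300 bp, 40.6 up to 400 bp and 89.2 up to 500 bp. At the lower limit of the rule, 0 of 53 gaps of 50 to 59 bp and 0 of 44 gaps of 40 to 49 bp had a summit. At the upper limit it was 4 of 84 gaps of 481 to 500 bp and 1 of 85 gaps of 501 to 520 bp. Same-strand gaps of 501 to 1000 bp, outside the rule, held 31.7 summits per Mb. The first gap of a run had a density of 64.5 per Mb (45.7 to 88.6) and later gaps 57.0 per Mb (27.3 to 104.9).

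Inside gaps, summits lay a median of 158 bp before the start of the downstream gene (quartiles 100 and 209) and 155.5 bp after the end of the upstream gene. Of the 48, 25 were nearer to the downstream start. Before first genes the median distance was 319 bp (quartiles 190 and 518). At equal distances the densities were alike within their intervals. From 101 to 200 bp before the next start, gaps held 99.2 per Mb and first-gene windows 92.1 per Mb, the highest of each series. Within 100 bp of the start gaps held 40.2 per Mb and first-gene windows 59.9 per Mb. The density before first genes was 36.8 per Mb from 501 to 750 bp and 12.8 per Mb from 751 to 1000 bp, a range of distances that gaps of this length cannot reach.

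**Figure D3:**
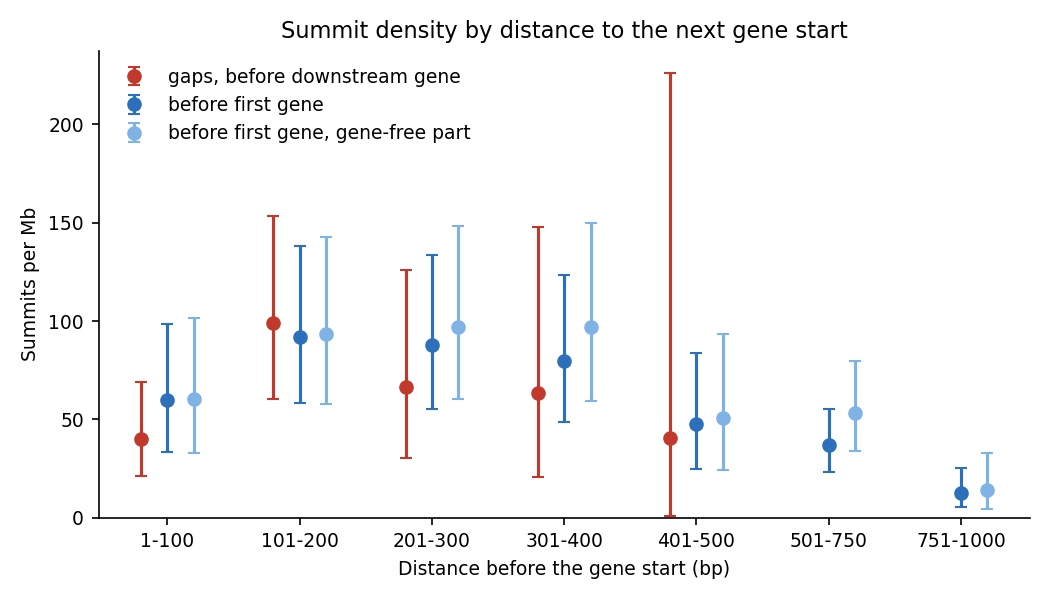
Summits per Mb (vertical axis) by distance before the next gene start in bp (horizontal axis), inside gaps before the downstream gene, in windows before the first gene and in the part of these free of protein-coding genes. Points are densities and lines are 95% exact Poisson intervals. From 101 to 200 bp the values are 99.2 per Mb in gaps and 92.1 per Mb before first genes.

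The strongest summit in a gap had a signal of 481.4 and lay between jmjd-1.1, annotated as a JmjC domain protein, and F43G6.10. The gap is chrII:11808946-11809348, of 403 bp. Its peak had signals of 230.0 in replicate 1 and 255.3 in replicate 2, and its summit lay 170 bp before F43G6.10. The next gap of the same run, between F43G6.10 and F43G6.7, held the second strongest, with 334.9 in the conservative list, 151.0 in replicate 1 and 184.9 in replicate 2. These 2 adjacent gaps were the only case of 2 gaps with a summit in 1 run, and the 1000 bp before jmjd-1.1 held none.

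The third was the 481 bp gap between lpin-1, the worm lipin, which acts in phospholipid and fat synthesis, and H37A05.4, with signals of 140.6 in replicate 1 and 170.3 in replicate 2. The fourth was the 114 bp gap between lido-8 and lido-9, genes named for a LIN-8 domain, with 158.0 in replicate 1 and 172.7 in replicate 2. Its sequence is the first of those printed, and its summit lay 22 bp before lido-9. These 4 of the 48 gap summits (8.33%) had a signal over 100 in both replicates' lists, as had 11 of 110 before first genes (10%).

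The other 16 of the 20 strongest gaps ranged in conservative-list signal from 168.3 between mei-2, a subunit of the meiotic katanin, and bag-1, a co-chaperone, to 111.3 between Y39B6A.42 and Y39B6A.43. The mei-2/bag-1 peak had 63.2 in replicate 1 and 103.0 in replicate 2. The C14F11.7/T13C5.6 gap on X (166.9) had a summit window with 3 copies in the genome and holds the ncRNA C14F11.14. Between F22E5.1 and F22E5.17 the signal was 145.1. Both replicates' thresholded lists had a peak in the C14F11.7/T13C5.6 and F22E5.1/F22E5.17 gaps. In the mei-2/bag-1 and Y39B6A.42/Y39B6A.43 gaps only that of replicate 2 had one.

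The gap after tol-1, the worm Toll receptor, had 138.0, with 65.9 in replicate 1 and 77.4 in replicate 2. That after the cyclophilin gene cyn-3 had 134.1 and holds the snoRNA Y75B12B.12. Cyclophilins speed the folding of proteins at proline. The gap between rgs-10 and rgs-11, regulators of G-protein signalling, had 120.2, with 72.6 in replicate 1 and 47.1 in replicate 2. Those before F13A7.14 (131.8) and before ufd-3, a ubiquitin fusion degradation factor (126.8), followed sre-36 and C05C10.5. In the gaps before rgs-11, F13A7.14 and ufd-3 the thresholded list of replicate 1 had a peak and that of replicate 2 had none. The gap between psf-3, a GINS replication subunit, and icd-2, a subunit of the nascent polypeptide-associated complex, had 119.6. The gap before egg-4, an inactive phosphatase of the egg-to-embryo transition, had 117.3. GINS acts at the replication fork. The gap between W08E12.8 and W08E12.7 had 114.7, and that before lem-2, an inner nuclear membrane protein, 113.7. The gap after the nicotinamidase gene pnc-1 had 113.4, that before exos-8, a gene of the RNA exosome, 112.3, and that before ldp-1, named for lipid droplets, 111.3. The gap between W08E12.8 and W08E12.7 also had a peak in the thresholded list of replicate 1 only. In the gaps after cyn-3, psf-3 and pnc-1 and before lem-2, only that of replicate 2 had one. Neither list had a peak in the gaps before egg-4, exos-8 and ldp-1, and both had one after tol-1.

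Conservative-list signals of gap summits ran from 5.1 to 481.4 with a median of 101.7, against a median of 114.2 (5.8 to 841.3) before first genes and 102.9 over all 892 peaks. Of the 48, 7 (14.6%, 7.25 to 27.2%) had a peak in each replicate's own thresholded list, against 38 of 112 (33.9%, 25.8 to 43.1%) before first genes and 236 of 892 (26.5%) overall. The share was lower for gaps, though the intervals of gaps and first-gene windows touch. For 24 gap summits neither replicate's thresholded list had a peak. Replicate 1 signals at gap summits ran from 34.6 to 230.0 (median 49.8) and replicate 2 signals from 34.9 to 255.3 (median 55.2). The gaps C33H5.13/rsp-6 and pyp-1/uba-1 each held a second summit, with signals of 19.8 and 5.1, that rested on the same replicate peaks as the first. With 1 summit per set of overlapping peaks the ratio of gap to window density was 1.32 (exact p = 0.112).

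**Figure D4:**
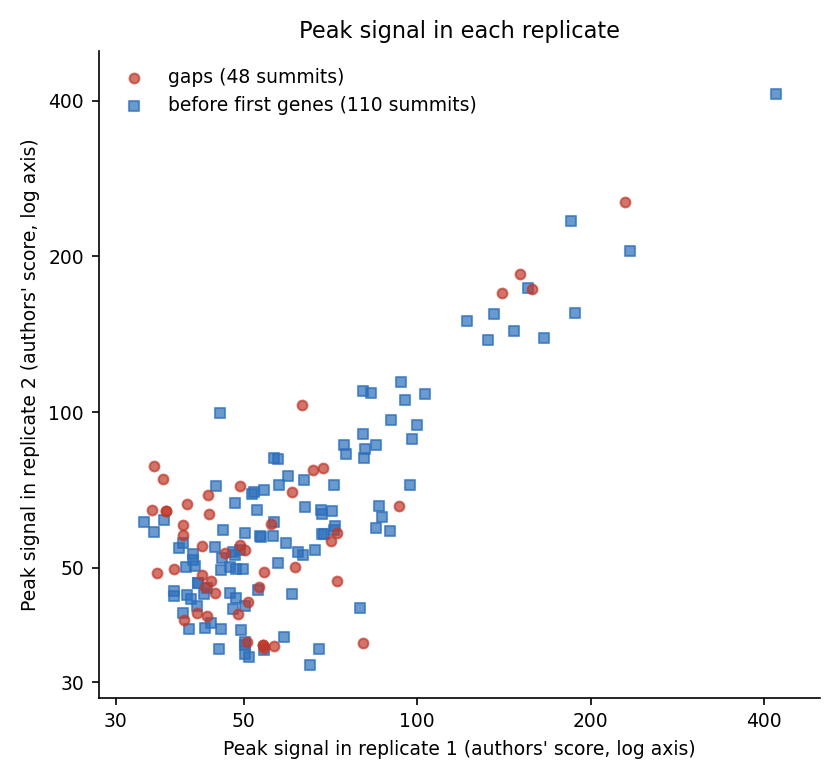
Peak signal in replicate 1 (horizontal axis) and replicate 2 (vertical axis), each the authors' score in that replicate's own list on a log axis, for the 48 summits in gaps and 110 summits before first genes with a peak in both ranked lists. The scale of the score is not stated, so positions are read along each axis alone. Of the gap summits 4 of 48 exceed 100 on both axes, and of those before first genes 11 of 110.

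Before first genes the strongest summit, with 841.3, lay 492 bp before Y32H12A.8 and inside another gene, with 420.1 in replicate 1 and 413.3 in replicate 2. The next, with 444.4, lay between prp-19, a splicing factor that starts a run of 6 genes, and K10D2.5, which starts a run of 3 on the other strand. It stood 633 bp before prp-19 and 42 bp before K10D2.5, with 233.9 in replicate 1 and 204.6 in replicate 2. K12H4.5 had 425.5, with 185.3 in replicate 1 and 234.6 in replicate 2. None of the gaps in these runs held a summit, where 1.38% of all gaps inside runs had one.

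Ribosomal protein genes accounted for 3 of the 10 strongest summits, rpl-15 with 324.2, rps-24 with 297.2 and rps-23 with 263.7. The rpl-15 peak had 155.7 in replicate 1 and 174.1 in replicate 2. The others were Y62F5A.12 (322.3), tasp-1, a threonine aspartase (293.5), sup-17, the worm ADAM10 protease (292.7), and the stretch shared by nrde-2, a nuclear RNAi factor, and atad-3, a mitochondrial ATPase (277.4). None of these runs had a gap summit, again beside 1.38% of all gaps inside runs.

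Genes of several housekeeping families lie in runs more often than the 29.3% of all genes, so their first genes and gaps were counted. Of 68 cytoplasmic ribosomal protein genes, 31 (45.6%) were in runs. Among the 24 that come first in a run, 8 had a summit in the 1000 bp before them (rpl-12, rpl-15, rpl-43, rps-12, rps-20, rps-23, rps-24 and rps-28), or 33.3% against 4.97% of all first genes. Of these 8 summits, 6 also lay before the start of an opposite-strand gene, and those of rpl-43, rps-12, rps-20 and rps-23 were nearer to that gene. With an opposite-strand start in the window, 6 of 17 ribosomal first genes had a summit (35.3%, against 10.4% of all such windows), and with no gene there 2 of 4 (against 2.72%). Of the 7 that come later in a run, 0 had a summit in the gap before them, and outside runs it was 6 of 37. Of 70 mitochondrial ribosomal protein genes, 43 were in runs, and they gave 0 of 17 first genes and 0 of 26 gaps. At the shares of all first genes (4.97%) and all gaps (1.38%), sets this small would hold few or none. Outside runs 3 of 27 had a summit, against 2.60% of all genes outside runs.

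The other families have few genes in runs, and their counts stand beside 4.97% of all first genes and 1.38% of all gaps. Chaperones had 1 of 10 first genes (cct-8, a subunit of the CCT chaperonin) and 0 of 11 gaps. The respiratory chain and ATP synthase had 1 of 4 (atp-5) and 1 of 13 (the gap before cyc-1, cytochrome c1, with a signal of 97.2). Splicing genes had 1 of 8 (prp-19) and 1 of 4 (rsp-6). The tRNA synthetases had 0 of 6 first genes and 1 of 10 gaps (fars-3), and the proteasome 0 of 7 and 0 of 7. These lists were not tested, and counts of this size allow no ranking among them.

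Of the textbook operons within the rule, gpd-2/gpd-3 (101 bp gap, glyceraldehyde-3-phosphate dehydrogenases) and des-2/deg-3 (112 bp, acetylcholine receptor subunits) had no summit in the gap or before the first gene. The fib-1/rps-16 pair, with fibrillarin first and a 109 bp gap, had 1 summit 80 bp before fib-1 and none in the gap. Its signal was 145.4, with 57.4 in replicate 1 and 81.3 in replicate 2, and the summit lay 240 bp before mut-15 on the other strand. The lir-1/lin-26 pair overlaps and is no member, but lin-26, an epidermal transcription factor, is the first gene of another run, and a summit lay 166 bp before it, inside a gene, with a signal of 75.9. Among the 3 runs of 8 genes, those that start with golg-5 and ran-4 had no summit. The run that starts with ntp-1 had 2, both in the gap before rsp-6, an SR splicing factor.

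Signal outside the conservative list was read from the authors' ranked list, as the 10000 strongest peaks that overlap no conservative peak. Most were weaker than the conservative peaks, but 105 had a signal above the first quartile of the conservative list (86.0), 54 above its median and 1, with 2409, above its highest (949.6). Of the 105, 1 lay in a gap and 7 before first genes. In that set 111 gaps (3.34%, 2.78 to 4.0%) held a summit, against 4.29% of all gaps of that length in any orientation. First-gene windows held one in 388 cases (15.4%, 14.1 to 16.9%), against 11.5% of the 1000 bp before all protein-coding genes. Per base, gaps held 145.2 and first-gene windows 151.6 summits per Mb, and the genome 99.7. The ratio of gaps to windows was 0.958 (0.768 to 1.19, exact conditional binomial p = 0.748). In the 1248 runs with no gene before the first it was 1.11 (0.796 to 1.54, exact p = 0.509). Divergent gaps stood at 276.3 per Mb, so that the ratio of same-strand to divergent gaps was 0.526 (exact p = 3.69e-05, adjusted p = 0.000203). Convergent gaps stood at 159.9 per Mb, with a ratio of 0.909 (exact p = 0.637).

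By rank, density over that of the genome fell towards 1 in all 4 kinds of region. For same-strand gaps it was 2.62 among the first 1000 of these peaks, 1.66 up to rank 2500, and 1.01 from rank 20001 to 40000. First-gene windows gave 2.75, 2.00 and 0.964 over the same ranks. The ratio of gaps to windows lay between 0.831 and 1.23 in the 7 bands, and each interval included 1.

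**Figure D5:**
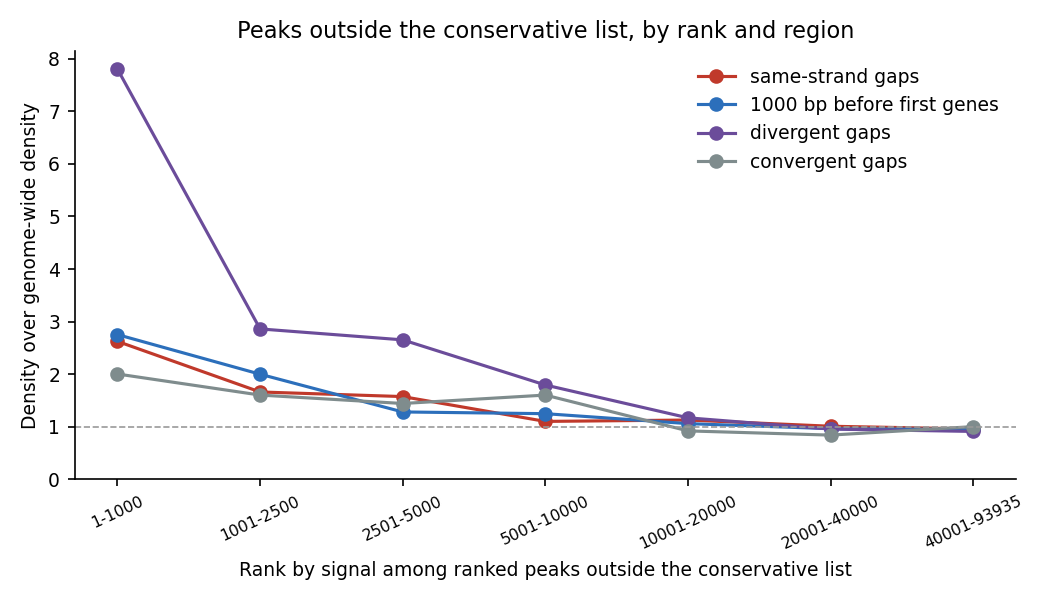
Density of summits over the genome-wide density of the same peaks (vertical axis) by rank among ranked peaks outside the conservative list (horizontal axis), for same-strand gaps, the 1000 bp before first genes, divergent gaps and convergent gaps. Each point is 1 band of ranks, with no interval drawn. In the first band same-strand gaps stand at 2.62, first-gene windows at 2.75, divergent gaps at 7.80 and convergent gaps at 2.00.

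Stretches at gap summits had a higher GC content than gaps as a whole. Those reaching 100 bp to each side of gap summits had 40.4% GC, those before first genes 43.1% and those of all 892 peaks 45.2%. Counting bases inside gaps only, gaps with a summit had 36.0% and gaps without one 32.5%. A summit stretch can run past its gap into the flanking genes, as at the 75 bp Y39B6A.42/Y39B6A.43 gap. The summit values are thus not those of gap DNA alone. The AP-2 palindrome GCCNNNGGC, searched on both strands, occurred in 3 of 48 stretches at gap summits (6.25%, 2.15 to 16.8%). Before first genes it was in 3 of 112 (2.68%, 0.915 to 7.58%), and over all peaks in 24 of 892 (2.69%). The intervals of gaps and first-gene windows overlap. At the midpoints of all 3328 gaps, 0.811% of stretches of equal length held it, and these too can reach into genes. Of the 3 at gap summits, 1 is in the F26G1.15/F26G1.1 gap printed above.

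The 4 E2F words TTTGGCGC, TTTCCCGC, TTTCGCGC and TTTGCCGC occurred in 9 of 48 gap windows (18.8%, 10.2 to 31.9%), 18 of 112 before first genes (16.1%) and 109 of 892 overall (12.2%). At gap midpoints the share was 3.16%. The printed sre-36/F13A7.14 gap holds TTTCGCGC. GATAAG occurred in 2 of 48 and in 10.1% of gap midpoints, and a run of 8 T bases (TTTTTTTT) in 10 of 48 and in 26.9%. All words were searched on both strands, and a window can hold several of them. The GC content of the stretches at midpoints was not measured, and its part in these shares was not tested.

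Few gap summits lay in repeated sequence. Of the 48 summit windows 2 (4.17%) had a further copy of at least 100 bp at 90% identity, against 13 of 112 (11.6%) before first genes and 209 of 892 (23.4%) overall. Genes of other biotypes lay in 115 of the 3328 gaps and in 3 of the 46 gaps with a summit, as an ncRNA (C14F11.14) and 2 snoRNAs (Y75B12B.12 and Y53F4B.47). By chromosome, gaps with a summit numbered 14 on II, 9 on V, 8 on IV, 7 on I, 6 on III and 2 on X. The X chromosome had 2 of 245 gaps (0.816%) and 5 of 204 first-gene windows (2.45%), against 1.43% of gaps and 5.19% of windows on the autosomes.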

How the data were processed

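Peak lists of 2 biological replicates were used. The authors made them on assembly ce11 and ranked or thresholded them by IDR, per their deposited README files. No aligner or peak caller is named there. The deposited signal is a score with no stated scale, so signals were ranked within 1 list and those of the replicates are given side by side. The deposited IDR score runs to 1000. Read counts were not analysed, so the depth is unknown and intervals cover counting error only. Peak ends lay within the lengths of all 6 WBcel235 chromosomes, the same assembly as ce11.

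Genes came from Ensembl release 115. Gaps were stretches free of protein-coding genes, windows excluded bases inside gaps of runs, and overlapping windows were merged. Summit densities were compared with exact conditional binomial tests, and matched stretches with exact McNemar tests, at a threshold of 0.05. The p-values of 11 comparisons were adjusted by the Benjamini-Hochberg method. Replicate signals at a summit came from the overlapping peak in each replicate's own ranked list. Peaks outside the conservative list were the 10000 strongest of the ranked list behind it that overlap none of its peaks. The code for the comparison of gap with first-gene window density was run on simulated lists of independent summits with planted ratios. This checks the counting of placed summits, not whether the test suits the real lists. That check covered neither the McNemar tests nor the other comparisons, and its lists lacked the overlapping peaks of the real ones. Named gaps were the 20 strongest, named windows the 10 strongest, with the longest runs, textbook operons and 7 gene families. Members, lists and tests were chosen with earlier results of these data known. The control library was not analysed here. Repeated sequence was searched with BLAST 2.17.0. Scripts ran on Python 3.11.15 with SciPy 1.17.1, matplotlib 3.10.9, pandas 2.3.3 and NumPy 2.4.6.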

Additional observations from a re-analysis of the deposited data

How the results depend on the processing

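Same-strand gaps were less dense in summits than divergent gaps in all 12 alternatives run for that ratio (0.0981 to 0.287). The ratio of gap to first-gene window density was 1.37; it turned below 1 for peaks listed in both replicates (0.588) and 500 bp windows (0.915), and passed for peak overlap (1.466), single-copy summits (1.484) and runs with no gene before (2.324), with 0.798 to 1.03 in the single-replicate lists. The matched difference of 0.0398 points turned negative for the other list (-0.239), the stronger 50% (-0.199), peaks in both replicates (-0.398), overlap (-1.03) and gaps of 50 to 300 bp (-0.328), spanned -0.437 to -0.318 in the single-replicate lists, and passed for runs with no gene before (1.202). The ratio to convergent gaps passed where genes of other biotypes were left out (2.88). For ranked peaks outside the conservative list the ratio of 0.958 turned above 1 with 5000 peaks (1.011), 20000 (1.002), all (1.015) and runs with no gene before (1.11), and was 0.997 to 1.088 in the single-replicate lists. It was again 0.958 without ranked peaks of an IDR score of 830 or more and 0.965 with signals below the conservative first quartile only, alternatives added after the data were seen. Gaps with a summit numbered 46, and 24 for the stronger 50%, 7 for peaks in both replicates, 20 for gaps of 50 to 300 bp, and 12 to 19 in the single-replicate lists. First-gene windows numbered 125, and 79 for the stronger 50%, 46 for peaks in both replicates, 34 for runs with no gene before, and 59 to 65 in the single-replicate lists. The ratio of long to short gaps (2.36) no longer passed with the other list (1.832), the stronger 50% (2.363), peaks in both (2.025), overlap (1.553), single-copy summits or 1 summit per overlapping set (2.25 each), no other biotypes (2.263), autosomes (2.273) or a single replicate (1.8 to 4.05). The checks on this ratio and on the runs with no gene before the first were added after the data were seen. In these runs the density ratio no longer passed for peaks in both replicates (2.77). The matched difference there (1.20 points) no longer passed for peaks in both replicates (0.160), overlap (0.721) or a single replicate (0.401 to 0.481). The cause of these changes was not tested.

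No comparison between conditions, paired or not, was possible because both replicates belong to 1 group. The only pairing was by run, in the matched stretches. The lists give no read depth, so a site with weak signal can be missed in either kind of region. Whole animals mix all tissues, so binding in few cells can go unlisted. Distance alone defines a run, and a gap can hold a promoter of its own.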
